A study of Homo sapiens with 6 samples.

Results

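The TGF-beta and BMP signalling genes described here are 50 genes chosen by name for their role in the pathway: 16 ligands, 7 extracellular regulators, 12 receptors and co-receptors, 8 SMAD genes, 3 regulators of the SMADs and 4 ID genes. Their symbols were matched to Ensembl identifiers, and all 50 were found among the 60612 genes counted in each library. Ligands of this family are secreted dimers that bring type I and type II receptor kinases together at the cell surface. The type I receptor then phosphorylates receptor-regulated SMAD proteins, SMAD2 and SMAD3 for TGF-beta and activin, SMAD1, SMAD5 and SMAD9 for BMP, which join SMAD4 and enter the nucleus. In mammary epithelium the pathway is known for restraining growth and, in tumours, for changes of cell shape and invasion.

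RNA was sequenced from SKBR3, a HER2-positive mammary epithelial cancer cell line, in 3 libraries with no treatment (parental) and 3 libraries of cells kept under rising concentrations of the HER2 antibody trastuzumab for 30 weeks (trastuzumab). The line is shared by both groups, and the labels name no selected clone, no separate cultures and no state of the drug at harvest. The p-values below therefore measure only the spread between these libraries, which may be technical. The question of the design is which genes differ in level after secondary resistance has formed.

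Depth was 71767118 to 72353624 counts in the parental and 71015138 to 82857810 in the trastuzumab libraries, so that 3 counts, the most that a count of 0 allows, corresponded to 0.0372 to 0.0428 CPM (counts scaled to a library total of 1000000). Such limits cover counting error only. All 8 luminal epithelial markers checked were present in every library, with a summed level of 20012 to 21767 CPM in parental and 23279 to 25039 CPM in trastuzumab libraries. The largest rise among them was in ERBB2, the HER2 gene, at 7922 ± 317 and 11045 ± 249 CPM. KRT7 and KRT19 were also higher, KRT8 and EPCAM were lower, and KRT18, GATA3 and FOXA1 did not pass (edgeR adjusted p below 0.05). With the correction for GC content and length described below, 1 of the 8 was higher and 5 were lower. The 5 basal markers together stood at 3.84 to 5.20 CPM in parental libraries and at 3.42, 21.2 and 20.1 CPM in trastuzumab replicates 1, 2 and 3. The basal keratins KRT5 (0.614, 9.07 and 8.26 CPM in these 3 libraries) and KRT14 (0.0571, 7.53 and 7.72 CPM) made up most of the sum in replicates 2 and 3. Neither keratin passed the test between groups. The basal factor TP63 was lower in the trastuzumab libraries (1.19 ± 0.629 and 0.442 ± 0.202 CPM, edgeR adjusted p = 0.0208), and MYH11 did not pass (edgeR adjusted p = 0.256). The TP63 groups overlapped, and its call was lost with the same correction (log2 fold change -1.08, edgeR adjusted p = 0.0962). ACTA2 was higher (0.391 ± 0.105 and 1.79 ± 0.608 CPM, edgeR adjusted p = 0.000104). Its level was 1.08, 2.16 and 2.12 CPM in trastuzumab replicates 1, 2 and 3 and at most 0.495 CPM in parental libraries. The 7 fibroblast markers summed to 9.42 to 19.5 CPM in parental and 6.24 to 11.2 CPM in trastuzumab libraries. The sum of the 4 endothelial markers went from 28.5 to 31.7 CPM to 79.0 to 86.0 CPM through CDH5, while PECAM1 did not exceed 0.224 CPM. VWF stood at 3.74 ± 0.482 and 3.50 ± 0.177 CPM and did not pass (edgeR adjusted p = 0.703), and KDR was too low for a test. That of the 4 leukocyte markers went from 14.4 to 17.2 CPM to 42.7 to 48.5 CPM through CD68, while PTPRC did not exceed 0.31 CPM. In bulk RNA, fewer cells of a type and less RNA per cell cannot be told apart, and the part of these markers in the results below was not tested.

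In the trastuzumab libraries the BMP ligand gene BMP7 was 24.7-fold lower, GDF15 and ID1 rose more than any other member that passed the test, SMAD3 rose and 6 of the 12 receptor genes fell. Of the 50 members, 43 passed the filter on low counts and were tested, 11 were higher, 14 were lower and 18 did not pass (edgeR quasi-likelihood test, Benjamini-Hochberg adjusted p below 0.05 over all genes tested). This makes 58.1% of the tested members, against 49.3% of all 17854 tested genes, of which 23.9% were higher and 25.4% lower. A change of at least 2-fold was called in 4 members, BMP7, GDF15, ID1 and BMP8A, or 9.3% against 7.78% of all tested genes. The groups did not overlap in 27 tested members, or 62.8%, against 57.5% of all tested genes. The median log2 fold change was -0.07 over the tested members and -0.0057 over all tested genes, and the median size of the change was 0.44 and 0.40. Without trastuzumab replicates 2 and 3, which carry the KRT5 and KRT14 counts, the calls of BMP8A, ACVR1B, ACVR2A, SMAD1 and SMAD4 were lost, and another member gained one. The direction of the change turned in 1 tested member, BMP2, which was not called. That fit leaves 1 trastuzumab library, assumed to vary like the parental ones. In its counts the family lay near the background of the comparison, and its description rests on single members.

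**Figure D1:**
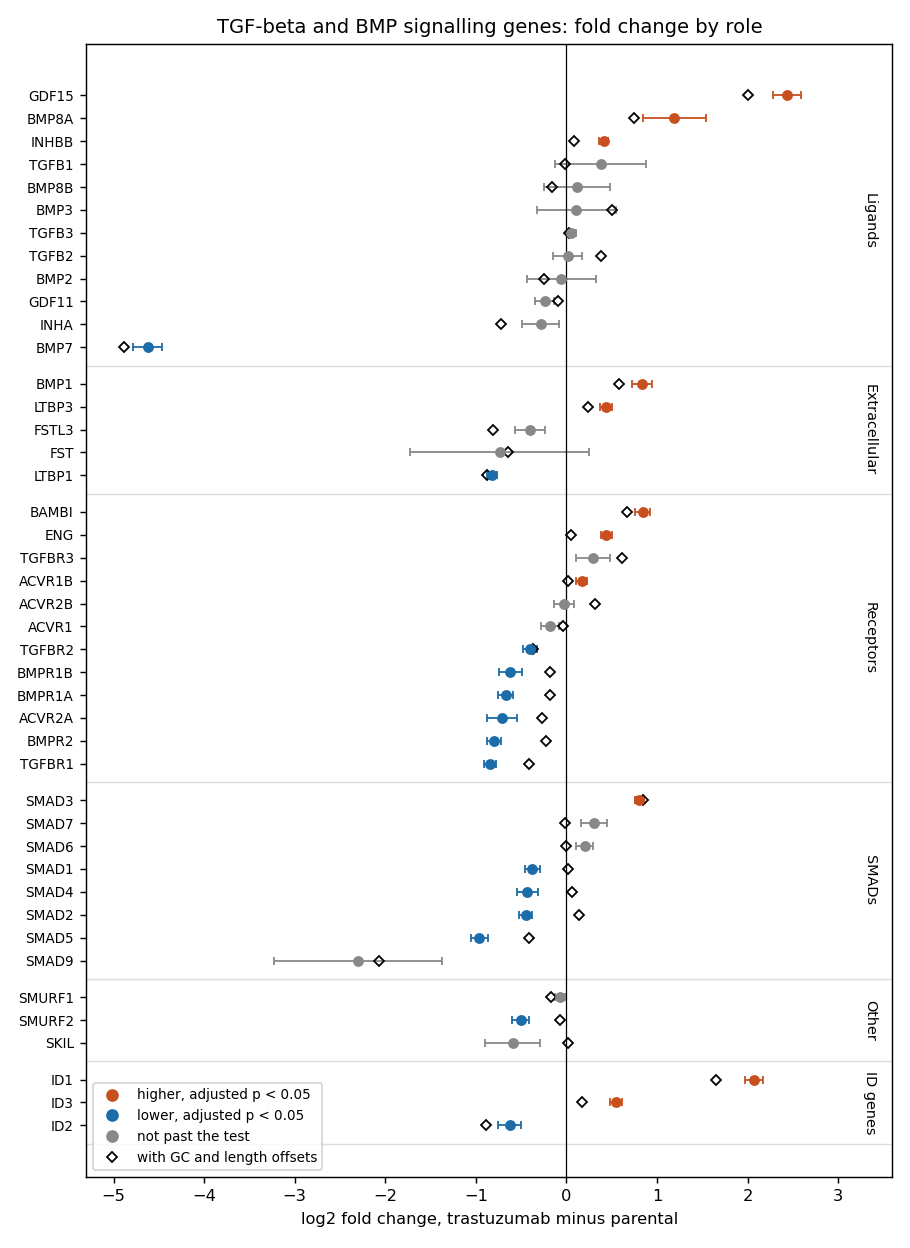
Log2 fold change (trastuzumab minus parental, horizontal axis) of the 43 tested members by role (Other: SMURF1, SMURF2 and SKIL). Filled circles with bars give the edgeR estimate and its standard error, coloured by call, and open diamonds the estimate after correction for GC content and length. BMP7 lies far to the left at -4.63, GDF15 and ID1 lie to the right at 2.44 and 2.07, and most receptor diamonds lie nearer to 0 than their circles.

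Fold changes of all genes moved with base composition in this comparison (Spearman correlation of 0.554 with the GC content of the transcript over 13569 protein-coding genes), and those of the members did too (0.629 over the 43 tested members, 0.182 after correction). These correlations run across genes measured in the same libraries and carry no test. A second fit, called corrected here, removes from each library its trend on GC content and exonic length, and also removes any real change linked to them. It called 9 members higher and 10 lower, against 38.9% of all genes in that fit (18.6% higher, 20.3% lower). Of the 25 calls, 14 held in the corrected fit with the same direction, 11 were lost, none turned into a call of the opposite direction and 5 members gained a call. The log2 fold changes and adjusted p-values (adjusted p) below are from edgeR, each estimate with its standard error (SE). Levels are given as the mean CPM ± SD of a group (n = 3) where libraries are not listed.

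**Figure D2:**
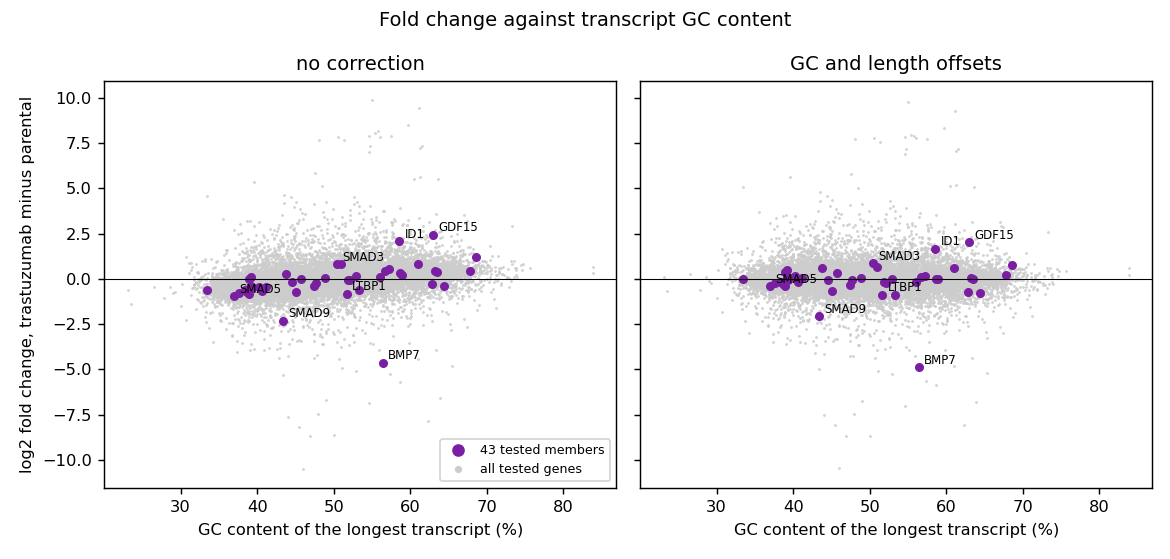
Log2 fold change (vertical axis) against GC content of the longest transcript in percent (horizontal axis), for all tested genes (grey) and the 43 tested members (purple), without correction on the left and with GC and length offsets on the right. The members follow the upward slope of the grey cloud on the left and lie flat on the right. Among the members, BMP7 lies lowest and GDF15 and ID1 lie highest in both.

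Among the ligands, the fall of BMP7 stood out. BMP7 (ENSG00000101144, GRCh38 chromosome 20, 57168748 to 57266629, minus strand), a bone morphogenetic protein of kidney, bone and mammary tissue, measured 77.4, 71.6 and 88.0 CPM in the parental libraries and 3.40, 3.77 and 2.44 CPM in the trastuzumab libraries. The lowest parental library lay far above the highest trastuzumab library. The fall was 24.7-fold (log2 fold change -4.63 ± 0.16 SE, adjusted p = 9.32e-08) and stood at -4.89 in the corrected fit. BMP7 accounted for 95.0 to 97.5% of the summed CPM of the 8 BMP ligand genes in parental libraries and for 42.9 to 49.7% in trastuzumab libraries, as that sum went from 82.0 ± 7.51 to 7.03 ± 1.16 CPM.

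GDF15 moved the other way. It encodes a distant family member that is secreted under cellular stress and signals through its own receptor GFRAL, not through the receptors listed here. GDF15 (ENSG00000130513, chromosome 19, 18374731 to 18389176, plus strand) measured 1.62, 1.86 and 2.08 CPM in parental and 9.89, 9.93 and 10.3 CPM in trastuzumab libraries. All 3 trastuzumab libraries were close together and well above the parental ones, a 5.41-fold rise (2.44 ± 0.15 SE, adjusted p = 2.61e-09; corrected 2.01).

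INHBB encodes the beta B subunit of activin B and inhibin B. INHBB (ENSG00000163083, chromosome 2, 120346143 to 120351808) measured 163, 170 and 184 CPM in parental and 229, 228 and 231 CPM in trastuzumab libraries, with no overlap. Its rise of 0.41 ± 0.05 SE on the log2 scale (adjusted p = 2.71e-06) shrank to 0.09 in the corrected fit, where the call was lost (adjusted p = 0.0761). BMP8A, a close paralog of BMP8B, rose from 0.622, 0.611 and 0.412 CPM to 1.37, 1.41 and 0.985 CPM (1.19 ± 0.35 SE, adjusted p = 0.00914). At these low counts its call was lost in the corrected fit (0.75, adjusted p = 0.105), and the near-identical sequences of BMP8A and BMP8B make the split of their reads uncertain.

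The other 8 tested ligands did not pass the test. TGFB3, the second most abundant ligand by length-scaled level, stood at 151 ± 3.44 and 157 ± 7.69 CPM. TGFB2 stood at 6.81 ± 0.96 and 6.88 ± 1.25 CPM and TGFB1, the ligand most studied in tumours, at only 0.414 ± 0.148 and 0.537 ± 0.118 CPM. TGFB1 overlaps the far more abundant HNRNPUL1 and CCDC97 on the other strand, and the strand setting of the counting is not given in the sources used here. GDF11, a relative of myostatin, stood at 19.1 ± 2.48 and 16.1 ± 1.85 CPM (-0.24 ± 0.11 SE, adjusted p = 0.0813). It passed in 3 of 18 alternatives, among them those without parental replicate 1 (-0.34, adjusted p = 0.0228) or trastuzumab replicate 3 (-0.34, adjusted p = 0.0377). INHA, the inhibin alpha subunit, stood at 3.69 ± 0.85 and 3.03 ± 0.0553 CPM (adjusted p = 0.272) and was called lower in the corrected fit (-0.73, adjusted p = 0.00947). INHA overlaps the far more abundant OBSL1 on the other strand. BMP2, BMP3 and BMP8B lay between 0.643 and 1.09 CPM in both groups.

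In 4 ligands too few reads were found for a test. BMP4 had 4, 13 and 0 counts in the parental libraries and none in the trastuzumab libraries, BMP5 had 7 counts in parental replicate 3 and 4 in trastuzumab replicate 1, and BMP6 had none in the parental libraries and 4, 6 and 2 in the trastuzumab libraries. INHBA, the beta A subunit of activin A, had 7, 0 and 6 against 7, 15 and 38 counts. Without the filter, none of these 4 was called by edgeR (adjusted p from 0.134 for BMP4 to 0.89 for BMP5) or by limma on FPKM, and 1 of them, BMP4, had an unadjusted edgeR p of 0.0445.

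The deposited FPKM values, which are scaled by gene length, allow levels to be compared between genes. Summed over the 16 ligands they came to 94.1 ± 4.01 FPKM in parental and 96.8 ± 1.25 FPKM in trastuzumab libraries, which overlapped. Within that sum, INHBB held 50.3 to 52.2% in parental and 62.6 to 64.2% in trastuzumab libraries, TGFB3 26.8 to 28.6% and 25.6 to 27.7%, BMP7 13.003 to 14.6% and 0.395 to 0.615%, and GDF15 0.764 to 0.892% and 4.15 to 4.39%. By mean FPKM over all 50 members, BMP7 went from rank 6 to rank 34 and GDF15 from rank 34 to rank 13. These shares describe RNA and depend on the gene lengths behind the FPKM values.

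**Figure D3:**
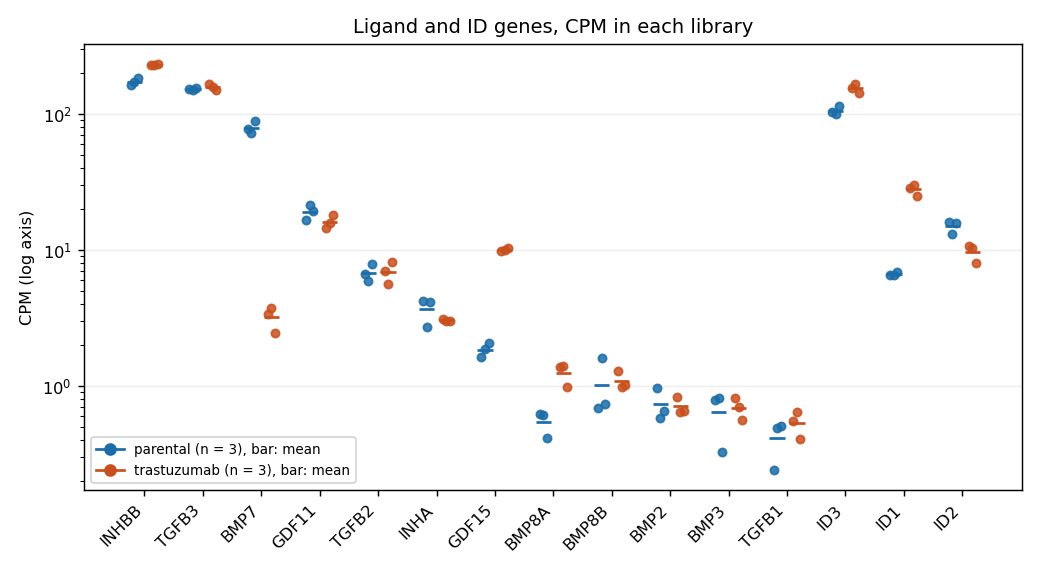
CPM (vertical log axis) of the 12 tested ligand genes and 3 tested ID genes in each parental (blue) and trastuzumab (orange) library, with a bar at the mean of each group (n = 3). BMP7 drops from 79.0 to 3.20 CPM, GDF15 and ID1 climb with no overlap of the groups, and the TGFB3 groups overlap at means of 151 and 157 CPM.

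Outside the cell, the 2 latent TGF-beta binding proteins among the members moved in opposite directions. LTBP1, which anchors latent TGF-beta in the matrix, measured 198, 204 and 207 CPM in parental and 117, 107 and 121 CPM in trastuzumab libraries. The groups were widely separated (-0.82 ± 0.05 SE, adjusted p = 2.58e-09; corrected -0.87). LTBP3, which has the same role for other latent complexes, rose from 52.5 ± 4.03 to 71.03 ± 4.64 CPM (0.44 ± 0.07 SE, adjusted p = 4.58e-05; corrected 0.24). BMP1 is, despite its name, a procollagen protease that also cleaves the BMP inhibitor chordin, and it rose from 7.26 ± 0.332 to 12.98 ± 0.606 CPM (0.84 ± 0.11 SE, adjusted p = 8.36e-06; corrected 0.58).

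None of the 4 antagonists passed the test or, for NOG and GREM1, the filter. FSTL3, a follistatin-like protein that binds activin, stood at 9.73 ± 2.19 and 7.38 ± 1.34 CPM (-0.40 ± 0.17 SE, adjusted p = 0.0624). FSTL3 was called lower in 8 of 18 alternatives. Among them were the corrected fit (-0.81, adjusted p = 0.000588) and the fit with the replicate number as a block (adjusted p = 0.0201). Others were those without parental replicate 1 (-0.54, adjusted p = 0.0189) and without trastuzumab replicate 2 (-0.56, adjusted p = 0.0214). FST, follistatin itself, stood at 0.378 ± 0.22 and 0.224 ± 0.27 CPM, with 42 of its 54 trastuzumab counts in replicate 3. NOG, which encodes the BMP antagonist noggin, had 4 counts in parental replicate 1 and none elsewhere and was not tested. GREM1, which encodes the BMP antagonist gremlin and is known as a fibroblast product, had 17, 0 and 4 counts in parental and 0, 6 and 80 counts in trastuzumab libraries and was not tested either. The fibroblast marker sums in the same order were 9.42, 19.5 and 12.3 CPM in parental and 6.24, 8.94 and 11.2 CPM in trastuzumab libraries. The GREM1 counts rose in the order of these sums in the trastuzumab libraries and did not in the parental libraries. The part of such cells in the GREM1 counts was not tested.

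Of the 12 receptor and co-receptor genes, 6 fell, 3 rose and 3 did not pass. The called share was 75%, against 49.3% of all tested genes (25.4% lower and 23.9% higher). Their log2 fold changes had a median of -0.29, or -0.11 in the corrected fit. There 3 were called lower and 3 higher, against 20.3% and 18.6% of all genes in that fit. The pseudoreceptor and both co-receptors were not among those that fell. TGFBR1, the type I receptor for TGF-beta, measured 103, 98.9 and 90.2 CPM in parental and 58.5, 53.0 and 51.2 CPM in trastuzumab libraries. Every parental library lay above every trastuzumab library (-0.85 ± 0.06 SE, adjusted p = 1.95e-08; corrected -0.41, adjusted p = 5.37e-06). TGFBR2, its type II partner, fell from 35.3 ± 2.33 to 26.7 ± 1.89 CPM (-0.40 ± 0.08 SE, adjusted p = 0.000417), with nearly the same value in the corrected fit (-0.36).

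BMPR2, BMPR1A and BMPR1B fell as well, and ACVR1 did not pass. BMPR2, the type II receptor for BMPs, measured 56.8, 55.8 and 56.3 CPM in parental and 34.5, 28.8 and 33.9 CPM in trastuzumab libraries (-0.80 ± 0.07 SE, adjusted p = 1.85e-07). The parental libraries all lay above the trastuzumab ones, and the corrected value was -0.22 (adjusted p = 0.00801). Of the type I receptors for BMPs, BMPR1A fell from 23.3 ± 1.31 to 14.7 ± 0.798 CPM (-0.67 ± 0.09 SE, adjusted p = 6.74e-06) and BMPR1B from 8.63 ± 0.44 to 5.62 ± 0.181 CPM (-0.62 ± 0.13 SE, adjusted p = 0.000644). Neither was called in the corrected fit (-0.19, adjusted p = 0.103, and -0.18, adjusted p = 0.271). ACVR1, a further type I receptor that carries BMP signals, stood at 17.8 ± 1.02 and 15.7 ± 1.55 CPM (adjusted p = 0.139).

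The activin receptors were divided. ACVR2A, a type II receptor for activins and BMPs, fell from 5.14 ± 0.376 to 3.14 ± 0.201 CPM (-0.71 ± 0.16 SE, adjusted p = 0.00161; corrected -0.27, adjusted p = 0.208). ACVR2B, the other type II receptor, stood at 14.4 ± 2.20 and 14.1 ± 0.683 CPM (adjusted p = 0.879) and was called higher only in the fits with GC and length offsets (0.31, adjusted p = 0.0287). ACVR1B, the type I receptor for activin, went from 52.7 ± 1.42 to 59.2 ± 1.73 CPM (0.17 ± 0.06 SE, adjusted p = 0.0234). That call was lost in 11 of 18 alternatives, among them those without parental replicate 1 (adjusted p = 0.0701) or 2 (0.0537), those without trastuzumab replicate 1 (0.105) or 3 (0.0606) and the corrected fit (0.01, adjusted p = 0.882).

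BAMBI, a pseudoreceptor without a kinase domain that blocks type I receptors and is itself induced by BMP and TGF-beta, measured 28.1, 24.3 and 27.3 CPM in parental and 44.3, 48.7 and 49.9 CPM in trastuzumab libraries. Its rise (0.84 ± 0.08 SE, adjusted p = 1.82e-07) held in the corrected fit (0.66, adjusted p = 1.63e-06). ENG, the co-receptor endoglin, best known from endothelium, rose from 54.2 ± 2.39 to 73.6 ± 4.22 CPM (0.44 ± 0.06 SE, adjusted p = 1.22e-05), and its corrected value was 0.05 (adjusted p = 0.462). Of the 4 endothelial markers, CDH5 rose with it, while PECAM1 stayed at or below 0.224 CPM. VWF did not pass (3.74 ± 0.482 and 3.50 ± 0.177 CPM, adjusted p = 0.703), and KDR was too low for a test. TGFBR3, the co-receptor betaglycan, stood at 3.63 ± 0.417 and 4.44 ± 0.852 CPM (adjusted p = 0.216) and was called higher in the corrected fit (0.61, adjusted p = 0.0121).

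**Figure D4:**
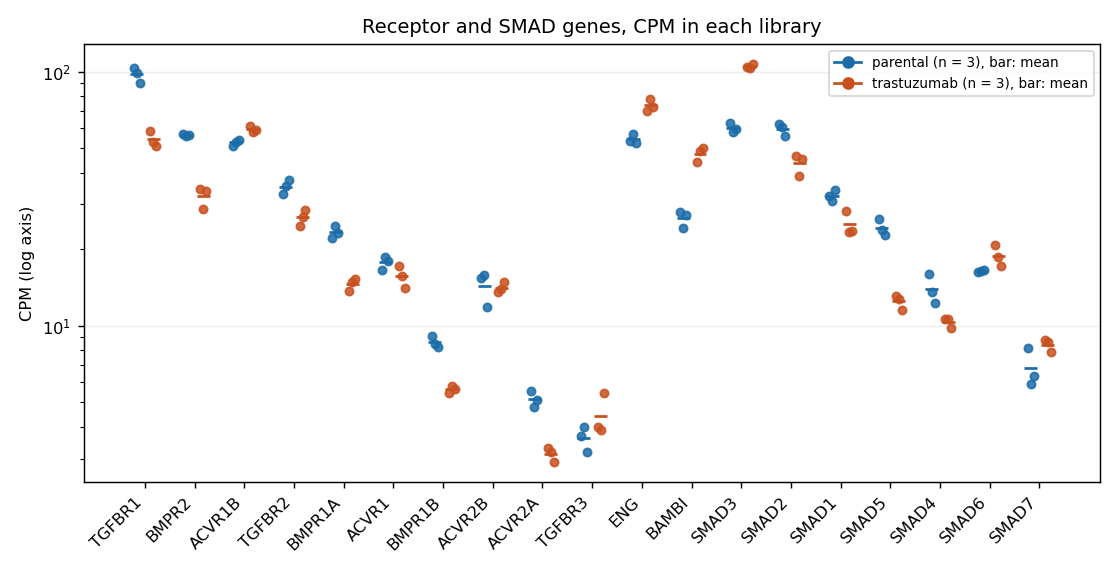
CPM (vertical log axis) of the 12 receptor genes and of 7 SMAD genes in each parental (blue) and trastuzumab (orange) library, with a bar at the mean of each group (n = 3). The blue points lie above the orange ones for TGFBR1, BMPR2, TGFBR2, BMPR1A, BMPR1B and ACVR2A, and below them for ENG, BAMBI and SMAD3.

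SMAD3 was the only SMAD gene that rose, while 4 of the 8 fell and 3 did not pass. Of all tested genes, 23.9% were higher and 25.4% lower. SMAD3 (ENSG00000166949, chromosome 15, 67063763 to 67195195), which binds DNA directly and carries TGF-beta and activin signals, measured 62.6, 57.8 and 59.5 CPM in parental and 104, 104 and 107 CPM in trastuzumab libraries. Both groups were tight and far apart (0.81 ± 0.05 SE, adjusted p = 3.01e-09), and the corrected value was 0.85. SMAD2, its partner on the same branch, measured 62.0, 60.3 and 55.9 CPM in parental and 46.6, 38.7 and 45.3 CPM in trastuzumab libraries (-0.45 ± 0.07 SE, adjusted p = 8.06e-05). With correction the sign of SMAD2 turned and the call was lost (0.14, adjusted p = 0.061). The SMAD3 to SMAD2 ratio of CPM, chosen after the values were seen, was 1.01, 0.959 and 1.06 in parental and 2.23, 2.68 and 2.37 in trastuzumab libraries. CPM are not scaled by gene length, and the same ratio of FPKM was 3.94 ± 0.20 in parental and 9.46 ± 0.909 in trastuzumab libraries.

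On the BMP branch, SMAD5 measured 26.3, 23.8 and 22.8 CPM in parental and 13.1, 12.8 and 11.5 CPM in trastuzumab libraries. It fell 1.95-fold (-0.96 ± 0.09 SE, adjusted p = 2.57e-07), the largest fall of a called SMAD gene, and remained lower with correction (-0.41, adjusted p = 0.000781). SMAD1 fell from 32.5 ± 1.66 to 25.0 ± 2.76 CPM (-0.38 ± 0.09 SE, adjusted p = 0.00141) and SMAD4, the partner common to all branches, from 14.0 ± 1.90 to 10.4 ± 0.496 CPM (-0.43 ± 0.11 SE, adjusted p = 0.00458). In the corrected fit both stood slightly above 0 and were not called (0.02, adjusted p = 0.882, and 0.06, adjusted p = 0.706). SMAD9, the third SMAD of the branch, was scarce, with 23, 23 and 27 counts in parental and 7, 0 and 8 counts in trastuzumab libraries. The groups did not overlap, but the test was narrowly missed (-2.30 ± 0.93 SE, edgeR adjusted p = 0.0508, and 0.0369 with DESeq2). DESeq2 was among 3 of 15 alternatives in which SMAD9 passed.

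The inhibitory SMADs, which are induced by the pathway and damp it, did not pass. SMAD6 stood at 16.4 ± 0.198 and 18.9 ± 1.82 CPM (0.20 ± 0.09 SE, adjusted p = 0.0811) and passed narrowly without trastuzumab replicate 3 (0.27, adjusted p = 0.0496). SMAD7 stood at 6.81 ± 1.18 and 8.42 ± 0.475 CPM (0.31 ± 0.14 SE, adjusted p = 0.0877) and passed without parental replicate 1 (0.46, adjusted p = 0.0183). Both were near 0 in the corrected fit.

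Of the ubiquitin ligases that target SMADs and receptors, SMURF2 fell from 22.2 ± 2.45 to 15.7 ± 0.601 CPM (-0.50 ± 0.09 SE, adjusted p = 0.000269), a call lost with correction (-0.07, adjusted p = 0.562). SMURF1 stood at 94.7 ± 6.86 and 90.1 ± 1.98 CPM (adjusted p = 0.325; corrected -0.17, adjusted p = 0.0107). SMURF1 overlaps the abundant TRRAP, and SMURF2 overlaps CEP95, on the other strand. SKIL, a co-repressor that binds SMADs, measured 56.1, 31.7 and 49.8 CPM in parental and 22.7, 34.5 and 33.8 CPM in trastuzumab libraries. Parental replicate 2 lay among the trastuzumab libraries, the change did not pass (-0.60 ± 0.30 SE, adjusted p = 0.192), and without that library it did (-0.80, adjusted p = 0.0313).

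The ID genes encode helix-loop-helix proteins that lack a DNA-binding region and hold other factors of that class off DNA, and they are classic targets of BMP-activated SMADs. ID1 (ENSG00000125968, chromosome 20, 31605283 to 31606515) measured 6.54, 6.49 and 6.89 CPM in parental and 28.7, 30.1 and 24.8 CPM in trastuzumab libraries. The groups lay far apart, with a 4.19-fold rise (2.07 ± 0.099 SE, adjusted p = 1.31e-10) that stood at 1.66 in the corrected fit. ID3 (ENSG00000117318, chromosome 1, 23557918 to 23559794), the member with the highest length-scaled level in both groups (63.3 ± 4.01 and 88.3 ± 6.82 FPKM), rose from 102, 99.1 and 114 CPM to 154, 166 and 142 CPM. Its libraries did not overlap either (0.55 ± 0.06 SE, adjusted p = 2.96e-06; corrected 0.18, adjusted p = 0.00901).

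ID2 went the other way. ID2 (ENSG00000115738, chromosome 2, 8678845 to 8684453) measured 16.1, 12.96 and 15.7 CPM in parental and 10.7, 10.3 and 8.05 CPM in trastuzumab libraries (-0.63 ± 0.13 SE, adjusted p = 0.000523; corrected -0.89). Every trastuzumab library lay below every parental one. The ID1 to ID2 ratio of CPM, chosen after the values were seen, was 0.406, 0.501 and 0.438 in parental and 2.68, 2.93 and 3.08 in trastuzumab libraries. It is not scaled by gene length. In FPKM, ID1 stood at 4.85 ± 0.110 in parental and 19.4 ± 1.92 in trastuzumab libraries, and ID2 at 6.07 ± 0.684 and 3.75 ± 0.558. ID4 had 3 counts in parental replicate 1, 4 in trastuzumab replicate 1 and none elsewhere, and was not tested.

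The start regions of the tested ID genes and of BAMBI are shown because all 4 are known as SMAD targets and all 4 changed, ID2 against the other three. Each window is taken from RefSeq (GRCh38.p14) and runs from 250 bases before the start site to 50 after it, 5′ to 3′ on the gene's own strand. Capitals mark the GC-rich letters GGCGCC, of a kind that BMP-activated SMADs bind, and the letters CAGAC or, on the other strand, GTCTG, the core of the box bound by SMAD3 and SMAD4. The windows are chr20:31605039-31605338 (plus strand) for ID1, chr1:23559452-23559751 (minus strand) for ID3, chr2:8681806-8682105 (plus strand) for ID2 and chr10:28677271-28677570 (plus strand) for BAMBI.
ID1: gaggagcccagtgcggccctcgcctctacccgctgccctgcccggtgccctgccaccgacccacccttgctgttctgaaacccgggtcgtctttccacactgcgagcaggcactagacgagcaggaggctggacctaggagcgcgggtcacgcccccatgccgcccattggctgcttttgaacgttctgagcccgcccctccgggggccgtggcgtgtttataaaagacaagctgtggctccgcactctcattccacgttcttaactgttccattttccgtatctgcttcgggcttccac
ID3: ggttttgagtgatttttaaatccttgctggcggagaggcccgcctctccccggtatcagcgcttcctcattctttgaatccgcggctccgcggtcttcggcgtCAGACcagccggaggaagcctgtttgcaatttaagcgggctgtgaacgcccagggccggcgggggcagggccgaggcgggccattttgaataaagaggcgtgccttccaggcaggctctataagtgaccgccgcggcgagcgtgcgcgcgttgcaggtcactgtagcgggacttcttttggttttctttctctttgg
ID2: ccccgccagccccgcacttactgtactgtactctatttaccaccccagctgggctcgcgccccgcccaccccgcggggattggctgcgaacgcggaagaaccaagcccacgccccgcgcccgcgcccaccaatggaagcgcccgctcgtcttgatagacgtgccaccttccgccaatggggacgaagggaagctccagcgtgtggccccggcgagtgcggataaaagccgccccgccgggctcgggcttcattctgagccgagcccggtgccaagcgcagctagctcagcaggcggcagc
BAMBI: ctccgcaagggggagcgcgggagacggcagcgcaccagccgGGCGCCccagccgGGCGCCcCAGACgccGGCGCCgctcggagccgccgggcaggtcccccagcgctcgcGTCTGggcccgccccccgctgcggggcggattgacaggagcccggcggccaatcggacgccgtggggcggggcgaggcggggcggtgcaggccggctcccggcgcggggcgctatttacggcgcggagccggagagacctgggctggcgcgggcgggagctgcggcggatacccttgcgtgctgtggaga
The BAMBI window held 3 matches to GGCGCC and 2 to CAGAC, with no overlap between them, the ID3 window held 1 match to CAGAC, and the ID1 and ID2 windows held neither. GGCGCC was found in 19.2% and CAGAC in 45.3% of all 35116 start windows of this length, and in 17 and 38 of the 76 windows of the 45 members that matched. A match is only a run of letters, and its absence says nothing of sites outside this window.

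Other genes of the pathway were read from lists of 104 further ligands, receptors, extracellular and intracellular regulators and targets. Of the 69 that were tested, 12 were higher, 32 lower and 25 did not pass (63.8%, against 49.3% of all tested genes), with a median log2 fold change of -0.27. The corrected fit gave 10 higher and 30 lower, against 18.6% and 20.3% of all genes in that fit, and a median of -0.18. The intracellular regulators carried most of the falls, with 18 of 27 lower and 4 higher, against 25.4% and 23.9% of all tested genes. In the corrected fit 17 were lower and 4 higher. TAB2, an adaptor of the kinase TAK1, fell from 171 ± 9.88 to 88.4 ± 5.37 CPM (-0.96 ± 0.06 SE, adjusted p = 1.47e-09; corrected -0.57).

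Among extracellular genes 8 of 13 were lower and 1 higher, against 25.4% and 23.9% of all tested genes, and the corrected fit called 6 lower and 0 higher. The 1 higher was LTBP4, a further latent TGF-beta binding protein (0.32 ± 0.08 SE, adjusted p = 0.00387; corrected 0.06, adjusted p = 0.575), and LTBP2 did not pass (adjusted p = 0.898). FBN1, the fibrillin that holds latent TGF-beta complexes in the matrix, fell from 5.60 ± 0.312 to 1.05 ± 0.393 CPM (-2.40 ± 0.25 SE, adjusted p = 8.7e-07; corrected -2.11). CRIM1, a membrane protein that binds BMPs and whose gene overlaps FEZ2 on the other strand, fell from 42.6 ± 2.21 to 21.2 ± 1.10 CPM (-1.01 ± 0.07 SE, adjusted p = 1.7e-08). Of the 17 further ligands, 14 were too low for a test, and edgeR and DESeq2 called none of the other 3, with 0 of the 3 at an unadjusted p below 0.05 in either. Unfiltered limma on log2(FPKM + 1) called none of the 10 it could test, and NODAL had an unadjusted p of 0.0243 there (adjusted p = 0.0967).

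Target genes of TGF-beta were divided, with 4 of 13 higher, 4 lower and 5 not past the test, against 23.9% and 25.4% of all tested genes. CCN2, a matricellular protein, measured 4.08, 4.13 and 4.03 CPM in parental and 13.9, 14.8 and 16.4 CPM in trastuzumab libraries. These groups were far apart (1.88 ± 0.12 SE, adjusted p = 2.73e-09; corrected 1.69). TGFBI, a secreted matrix protein, rose from 8.06 ± 0.265 to 20.1 ± 1.13 CPM (1.32 ± 0.10 SE, adjusted p = 1.51e-08) and the basement membrane collagen COL4A1, which overlaps COL4A2 on the other strand, from 0.895 ± 0.266 to 2.99 ± 0.617 CPM (1.74 ± 0.28 SE, adjusted p = 7.08e-05). The 4 lower targets, named after their values were seen, were CDKN1A, a cell-cycle inhibitor (-0.90 ± 0.18 SE, adjusted p = 0.000509; corrected -1.26), the transcription factors BHLHE40 (-0.45; corrected -0.63) and TSC22D1 (-0.28; corrected -0.22), and FN1, fibronectin. FN1 was lower without correction (-0.23 ± 0.05 SE, adjusted p = 0.000593) and higher with it (0.26, adjusted p = 0.00135). Of 4 tested BMP targets outside the ID family, 3 were higher, against 23.9% of all tested genes. In the corrected fit 2 were higher, against 18.6% of all genes in that fit. Among the 3 was the repressor HEY1, which rose from 2.79 ± 0.439 to 4.01 ± 0.654 CPM with overlapping groups (0.52 ± 0.20 SE, adjusted p = 0.0379). The others, named after their values were seen, were ATOH8 and UNC5B. ATOH8 was scarce (0.245 ± 0.0881 and 0.805 ± 0.243 CPM), and UNC5B lost its call with correction (0.25, adjusted p = 0.312). MSX2, the most abundant of the 4, did not pass (49.9 ± 1.13 and 51.7 ± 1.54 CPM, adjusted p = 0.540). A further 4 listed BMP targets were too low for a test.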

How the data were processed

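RNA sequencing of 6 SKBR3 libraries, 3 parental and 3 trastuzumab, was used. The authors deposited raw counts per gene for 60612 Ensembl identifiers and FPKM values for 33686 of them. The aligner STAR (2.4.2a) and the build hg38 are named in the submitters' processing notes. How reads were assigned to genes (program, strandedness, gene models, filtering) is not given in the sources used here. Of the tested members, 11 overlap another gene with a mean of at least 10 counts (TGFB1, TGFB3, BMP8B, GDF11, INHA, ACVR2A, ACVR2B, ENG, SMURF1, SMURF2 and ID2), so their levels are uncertain to that extent.

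After filterByExpr by group, 17854 genes entered the robust quasi-likelihood F test of edgeR (4.0.16, under R 4.3.3) with TMM scaling and no covariate, and CPM use the TMM-scaled totals. The SE is the fold change divided by the square root of F. The corrected fit adds offsets from splines with 5 degrees of freedom on GC content and exonic length from GENCODE 29. Alternatives used DESeq2 1.42.0, limma 3.58.1 on log2(FPKM + 1) and log2(FPKM + 0.1) (at least 1 FPKM in 3 libraries), other scaling, other filters, a replicate block, and left-out libraries. The scripts were tested on simulated counts.

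The members and lists were chosen with earlier results of these data known. Named genes are all members and, of the other pathway genes, the 4 largest called rises and 4 largest called falls that reach 1 CPM in either group, and called targets of at least 2-fold. One gene that this rule picks is not reported here. Within groups, libraries differed by more than sampling noise (20.0 to 30.9 as the chi-square divided by its degrees of freedom), so none was treated as deposited a second time.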

Additional observations from a re-analysis of the deposited data

How the results depend on the processing

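Of the 25 called members, 14 kept call and direction in each of the 18 alternatives that gave a value for them. The counts of members stayed between 9 and 11 higher and 10 and 17 lower, those of other pathway genes between 8 and 14 higher and 27 and 35 lower, and that of all genes between 5926 and 8894. The alternative without trastuzumab replicates 2 and 3 was chosen after seeing the data. Signs of called members turned only with GC and length offsets, without and with the replicate block, in SMAD1 (0.0195 and 0.0191), SMAD2 (0.1405 and 0.1385) and SMAD4 (0.0608 and 0.0644), and the cause was not tested. Among members not called, the same 2 fits turned BMP8B (-0.1597 and -0.0642), ACVR2B (0.3105 and 0.3184), SMAD6 (-0.0016 and -0.0062) and SKIL (0.0126 and 0.013), and the offsets alone turned TGFB1 (-0.0166) and SMAD7 (-0.0138). TGFB2 turned with library totals (-0.0395), log2(FPKM + 1) with and without the filter (-0.0308 in both) and log2(FPKM + 0.1) (-0.0595), and TGFB3 in the same 4 settings (-0.0018, -0.0169 in both, and -0.0176). Leaving out 1 library at a time moved TGFB2 between -0.1192 and 0.1456, BMP2 between -0.2015 and 0.1921 (0.1633 without trastuzumab replicates 2 and 3), BMP3 between -0.2066 and 0.313, BMP8B between -0.0992 and 0.6109 and ACVR2B between -0.1478 and 0.0516, all log2 fold changes that did not pass. The 7 members below the filter on low counts had too few reads at this depth for the main test.

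With the replicate number as a block, 11 members were higher and 15 lower, and 8653 of all tested genes were called. Same-numbered libraries deviated together only weakly (correlations of 0.0210, 0.0764 and 0.113 for replicates 1, 2 and 3), so the numbers were not taken as a pairing, although each library correlated best with its own number as a hint from the data. The block added the call of FSTL3 and changed no other call of a member.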
